A study of Homo sapiens with 9 samples.

Results

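MYOCD, the gene for the transcriptional coactivator myocardin, and 9 genes of the smooth muscle contractile apparatus were followed across T1 cells after ERRα knockdown and after imatinib. The 10 genes (MYOCD, ACTA2, ACTG2, MYH11, MYLK, TAGLN, CNN1, CALD1, SYNPO2 and LMOD1) were taken by name from a count table of 61209 genes. They were chosen by their function and with earlier results of these same counts in view, so their own levels and fold changes are given as a description, without a test.

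GIST-T1 (T1) is an established human gastrointestinal stromal tumor line that depends on mutant KIT and is sensitive to imatinib. All 9 libraries carry the same genotype, a KIT exon 11 deletion written as del560-79 in the sample labels. The 3 groups of 3 libraries were made 48 h after transfection: siNC cells received a non-target siRNA, siERRα cells received siRNA against ESRRA (the gene for ERRα, an orphan nuclear receptor), and imatinib cells received the non-target siRNA together with 50 nM imatinib, an inhibitor of KIT. A single cell line and 1 knockdown condition limit the groups as a model, and cells were plated in replicates of 3 with no statement that these were separate cultures, so every p-value measures the spread between libraries only. 

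Myocardin does not bind DNA itself. It docks on serum response factor (SRF), which sits on a short A/T-rich motif known as the CArG box, and in smooth muscle this pair drives the genes for contractile actin, smooth muscle myosin and their regulatory proteins. Other SRF partners, the myocardin-related factors MRTFA and MRTFB and the ternary complex factors of the ELK family, use the same site. Interstitial cells of Cajal, the pacemaker cells from which GIST is thought to arise, lie among the smooth muscle of the gut wall and share part of its developmental origin.

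Libraries held 37527236 to 49363002 counts assigned to genes. ESRRA averaged 42.1 ± 2.24 CPM (counts scaled to library size with TMM factors) in siNC (SD, n = 3), 1.17 ± 0.356 CPM in siERRα and 32.7 ± 2.69 CPM with imatinib. The share of counts from mitochondrial genes was 0.846% to 0.989% in siNC, 0.943% to 1.03% in siERRα and 1.48% to 1.54% with imatinib, and its part in the results was not tested. All 5 markers of the Cajal cell and GIST (KIT, ANO1, ETV1, CD34, PRKCQ) were above 1 CPM. They summed to 3202 to 3295 CPM in siNC, 3352 to 3529 CPM in siERRα and 3353 to 3564 CPM with imatinib. Some genes that define differentiated smooth muscle were close to absent: DES (desmin) averaged at most 0.0295 CPM, MYL9 (the smooth muscle regulatory light chain) at most 0.009 CPM and MYH11 at most 0.276 CPM in any group. Others were at higher levels. SMTN (smoothelin, a marker of contractile cells) was at 185, 215 and 133 CPM in siNC, siERRα and imatinib. CARMN, a long non-coding RNA of smooth muscle, was at 14.81, 16.99 and 13.31 CPM in the same order. Its siERRα libraries were above those of both other groups without overlap. The CARMN log2 fold change in siERRα was 0.20 against siNC (edgeR adjusted p = 0.0819) and 0.35 against imatinib (edgeR adjusted p = 0.00124).

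All 10 genes passed the filter on low counts that left 16976 genes for testing. Of the 10 genes, 6 (ACTA2, ACTG2, MYLK, TAGLN, CNN1 and SYNPO2) were lower after ERRα knockdown at an adjusted p under 0.05 by edgeR's quasi-likelihood test, and 0 were higher. Among all genes tested, 12.6% were lower and 11.4% higher at that threshold. With imatinib, 6 of the 10 (MYOCD, ACTA2, ACTG2, MYLK, TAGLN and LMOD1) were higher and 0 were lower, against 21.4% higher and 20.3% lower among all genes tested. Set directly against imatinib, 8 of the 10 were lower in siERRα and 0 higher, against 26.6% and 25.6% of all genes, with MYH11 and CALD1 not past the threshold. None of the counts of 0 changed with DESeq2 or limma, and at an unadjusted p under 0.05 they were 0 with all 3 tools. The median log2 fold change of the 10 genes was -0.41 for knockdown (range -1.39 to 0.32), 0.34 for imatinib (-0.53 to 3.77) and -1.13 for knockdown against imatinib (-4.01 to 0.86). The corresponding medians over all genes tested were 0.01, 0.00 and 0.00. Both contrasts against siNC share the same 3 control libraries, and nothing is read from these counts because the genes were chosen with the contrasts known. Of 6 pericyte markers, 5 were also lower after knockdown and all 6 were higher with imatinib, and their part in the values of the 10 genes was not tested. In bulk RNA, fewer cells expressing a gene and less RNA per cell cannot be told apart.

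**Figure D1:**
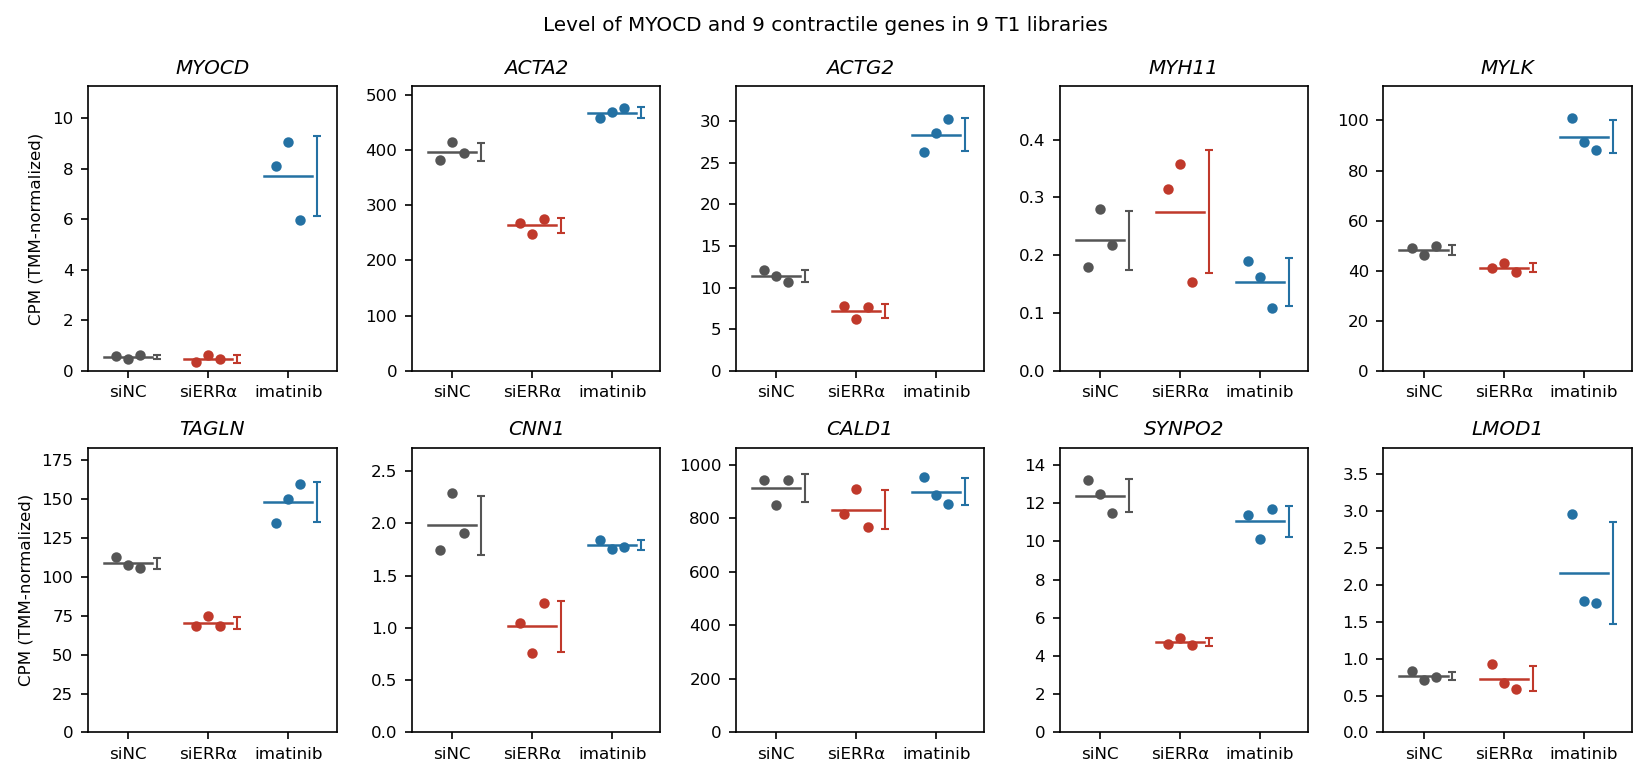
Level of each of the 10 genes in every library. Each panel plots TMM-normalized CPM on an axis from 0 for the 3 siNC, 3 siERRα and 3 imatinib libraries (points), with the group mean (horizontal line) and SD (bar). MYOCD is between 5.96 and 9.05 CPM in the imatinib libraries and below 0.64 CPM in the other 6, SYNPO2 is below 5 CPM in siERRα libraries only, and CALD1 overlaps across all 3 groups.

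MYOCD (chr17:12665890-12768949, plus strand, GRCh38) was near the detection limit in control cells. Its libraries held 27, 18 and 31 reads in siNC, 16, 30 and 18 in siERRα, and 300, 336 and 218 with imatinib. On the normalized scale these were 0.604, 0.458 and 0.615 CPM in siNC, 0.335, 0.631 and 0.463 CPM in siERRα, and 8.13, 9.05 and 5.96 CPM with imatinib. Every imatinib library was far above every other library, while the siNC and siERRα libraries overlapped. The imatinib mean was 13.8-fold that of siNC, a log2 fold change of 3.77 (SE 0.21, 95% interval 3.32 to 4.21). After knockdown the log2 fold change was -0.24 (SE 0.30), with an interval from -0.86 to 0.38, and a difference was not detectable at this depth. The gene count does not separate the isoforms of MYOCD known from cardiac and smooth muscle.

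The smooth muscle α-actin gene ACTA2 (chr10:88935074-88991339, minus strand) was abundant in every group. It stood at 381, 414 and 394 CPM in siNC, 268, 248 and 275 CPM in siERRα, and 457, 468 and 476 CPM with imatinib, so that the 3 groups did not overlap. Knockdown libraries averaged 66.5% of the siNC level, a log2 fold change of -0.59 (SE 0.06). The difference with imatinib was smaller and in the other direction, at 1.18-fold and a log2 fold change of 0.24 (SE 0.05). FAS, the death receptor gene, lies on the opposite strand to ACTA2 and shares 6.88% of its exon bases. FAS averaged 54.8 CPM in siNC, 59.8 CPM in siERRα and 24.4 CPM with imatinib, where ACTA2 was higher and FAS lower than in siNC. The antisense gene ACTA2-AS1, named after its value was seen, shares more of the exon bases of ACTA2 (29.1%) but was at 1.00 ± 0.099, 0.958 ± 0.082 and 0.614 ± 0.146 CPM in siNC, siERRα and imatinib. Its log2 fold change with imatinib was -0.71 (edgeR adjusted p = 0.0272), a call lost with DESeq2 (-0.71) and without siNC replicate 1 (-0.62) or 3 (-0.75) or imatinib replicate 1 (-0.59) or 3 (-0.63). STAMBPL1, also on the opposite strand, shares no exon base with ACTA2 and averaged 69.2, 47.8 and 32.6 CPM in the same order. Whether reads were counted by strand is not given in the sources used here.

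ACTG2 (chr2:73892314-73919865, plus strand) encodes the γ-actin of enteric smooth muscle and had a wider span than ACTA2. Its levels were 12.1, 11.4 and 10.7 CPM in siNC, 7.80, 6.21 and 7.62 CPM in siERRα, and 26.3, 28.5 and 30.3 CPM with imatinib. The groups again did not overlap, with siERRα at the bottom and imatinib at the top. The log2 fold change was -0.66 (SE 0.10) for knockdown and 1.32 (SE 0.09) for imatinib, which is 63.3% and 2.49-fold of the siNC mean.

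Because SRF and myocardin are known to act through the CArG box, matches to it in the promoters of both actin genes and of MYLK are shown. RefSeq promoter windows (GRCh38.p14, 250 bases before to 50 bases after each annotated start) were found for 7 of the 10 genes, in 13 windows; MYOCD, TAGLN and MYH11 have no entry. A CArG box, searched by its published consensus on both strands, was in 2 of the 13 windows, those of ACTG2 and MYLK, and in 1.29% of all 35116 windows. With 1 mismatch allowed it was in 7 of the 13 windows and in 18.9% of all windows. Those 7 windows came from 6 genes. CALD1, SYNPO2 and ACTA2 have more than 1 window each, and the share over all genes was not counted. The matches below are written 5′ to 3′ on the gene's strand, with the 10-base match in capitals. The ACTG2 promoter holds a pair of matches, starting 110 and 73 bases before the annotated start (chr2:73892878-73892927 and chr2:73892915-73892964):
ACTG2 at 110: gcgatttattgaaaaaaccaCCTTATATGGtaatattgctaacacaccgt
ACTG2 at 73: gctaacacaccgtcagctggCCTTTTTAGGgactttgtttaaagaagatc
The ACTA2 window at the 5′ end of the gene span (chr10:88991288-88991587) holds no match. Another ACTA2 window, inside the span (chr10:88952724-88953023), holds 2 matches with 1 mismatch. They start 121 and 71 bases before the annotated start of that window (chr10:88952865-88952914 and chr10:88952815-88952864, minus strand):
ACTA2 at 121: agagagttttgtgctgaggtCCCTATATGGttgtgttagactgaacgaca
ACTA2 at 71: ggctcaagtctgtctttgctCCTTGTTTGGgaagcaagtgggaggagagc
The single MYLK match starts 94 bases before its annotated start (chr3:123620613-123620662, minus strand):
MYLK at 94: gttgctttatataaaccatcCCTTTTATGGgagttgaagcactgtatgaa
The consensus response element of the ERR receptors, TCAAGGTCA on either strand, was in 0 of the 13 windows and in 0.353% of all windows. A letter match is a description of the sequence and says nothing about binding, and no match covers these windows only.

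MYH11 and MYLK represent the motor and its switch. MYH11 (chr16:15703135-15857028, minus strand) encodes the smooth muscle myosin heavy chain, the marker taken to define a differentiated smooth muscle cell. Only 8, 11 and 11 reads mapped to it in siNC, 15, 17 and 6 in siERRα, and 7, 6 and 4 with imatinib. These correspond to 0.179, 0.280 and 0.218 CPM, 0.314, 0.358 and 0.154 CPM, and 0.190, 0.162 and 0.109 CPM. All 3 groups overlapped, and at this depth a difference could not be resolved: the log2 fold change was 0.32 for knockdown (interval -0.56 to 1.21) and -0.53 for imatinib (interval -1.56 to 0.49). NDE1 shares 6.0% of the MYH11 exon bases on the opposite strand and averaged 34.0 to 39.8 CPM in the 3 groups, and how reads in the shared part were assigned is not known.

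MYLK (chr3:123610049-123884332, minus strand) encodes myosin light chain kinase, which phosphorylates the regulatory light chain to start contraction. Its levels were 49, 46.2 and 49.8 CPM in siNC, 41.2, 43.0 and 39.4 CPM in siERRα, and 100.8, 91.3 and 88.3 CPM with imatinib. All 3 imatinib libraries were well above the rest, and the siERRα libraries were just below those of siNC without overlap. Imatinib libraries averaged 1.93-fold the siNC level, a log2 fold change of 0.95 (SE 0.07). After knockdown it was -0.23 (SE 0.07). That difference was no longer past the threshold without siNC replicate 1 (-0.22), siNC replicate 3 (-0.22) or siERRα replicate 3 (-0.21). The MYLK promoter window printed above lies near the 3′ end of the gene, where telokin, a short product of the same locus, is known to start. Gene-level counts do not separate telokin from the short and long kinases.

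TAGLN (chr11:117199370-117207464, plus strand) encodes transgelin (SM22α), an actin cross-linking protein and one of the earliest smooth muscle markers. It was at 113, 107 and 106 CPM in siNC, 68.3, 74.8 and 68.2 CPM in siERRα, and 134, 150 and 160 CPM with imatinib. The 3 groups were fully separated, in the same order as for the actins. The log2 fold change was -0.63 (SE 0.07) for knockdown and 0.45 (SE 0.07) for imatinib. PCSK7, on the opposite strand, shares 34.1% of the exon bases of TAGLN and averaged 19.6 CPM in siNC and 21.4 CPM in siERRα.

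CNN1 (chr19:11538767-11550323, plus strand) encodes calponin, which inhibits the actomyosin ATPase. It was at 1.75, 2.29 and 1.91 CPM in siNC, 1.05, 0.757 and 1.24 CPM in siERRα, and 1.84, 1.75 and 1.78 CPM with imatinib. Only the siERRα libraries stood apart, below all others. Knockdown gave a log2 fold change of -0.97 (SE 0.20), or 51.2% of the siNC mean. Imatinib gave -0.14 with an interval of -0.54 to 0.25, the imatinib libraries lying within the siNC range.

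SYNPO2 (chr4:118850688-119061247, plus strand) encodes synaptopodin 2 (myopodin), an actin-bundling protein of smooth muscle and the Z-disc. It had the lowest fold change of the 10 genes after knockdown. Its levels were 13.2, 12.5 and 11.5 CPM in siNC, 4.63, 4.97 and 4.58 CPM in siERRα, and 11.4, 10.1 and 11.7 CPM with imatinib. The siERRα libraries were tightly grouped at 38.1% of the siNC mean, a log2 fold change of -1.39 (SE 0.10), and the other groups overlapped. Imatinib gave a log2 fold change of -0.16 (interval -0.35 to 0.03).

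LMOD1 (chr1:201896456-201946548, minus strand) encodes leiomodin 1, a smooth muscle protein that nucleates actin filaments. Its counts were low, with 37, 28 and 38 reads in siNC, 44, 32 and 23 in siERRα, and 109, 66 and 64 with imatinib. Normalized levels were 0.828, 0.713 and 0.754 CPM, 0.922, 0.673 and 0.592 CPM, and 2.96, 1.78 and 1.75 CPM. All imatinib libraries were above the others, with imatinib replicate 1 highest. The log2 fold change with imatinib was 1.49 (SE 0.24), and after knockdown it was -0.06 (interval -0.63 to 0.51).

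CALD1 (chr7:134744252-134970729, plus strand) encodes caldesmon, which blocks myosin binding to actin and exists as a heavy smooth muscle form and a light form found in most cells. It was the most abundant of the 10 genes, at 942, 851 and 943 CPM in siNC, 817, 911 and 768 CPM in siERRα, and 954, 888 and 855 CPM with imatinib. All 3 groups overlapped. The log2 fold change was -0.13 for knockdown (interval -0.27 to 0.01) and -0.02 for imatinib (interval -0.16 to 0.12). Without siERRα replicate 2, the highest library of its group, CALD1 was past the threshold for knockdown at -0.20 and against imatinib at -0.18. The counts do not say which of the 2 forms was present.

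**Figure D2:**
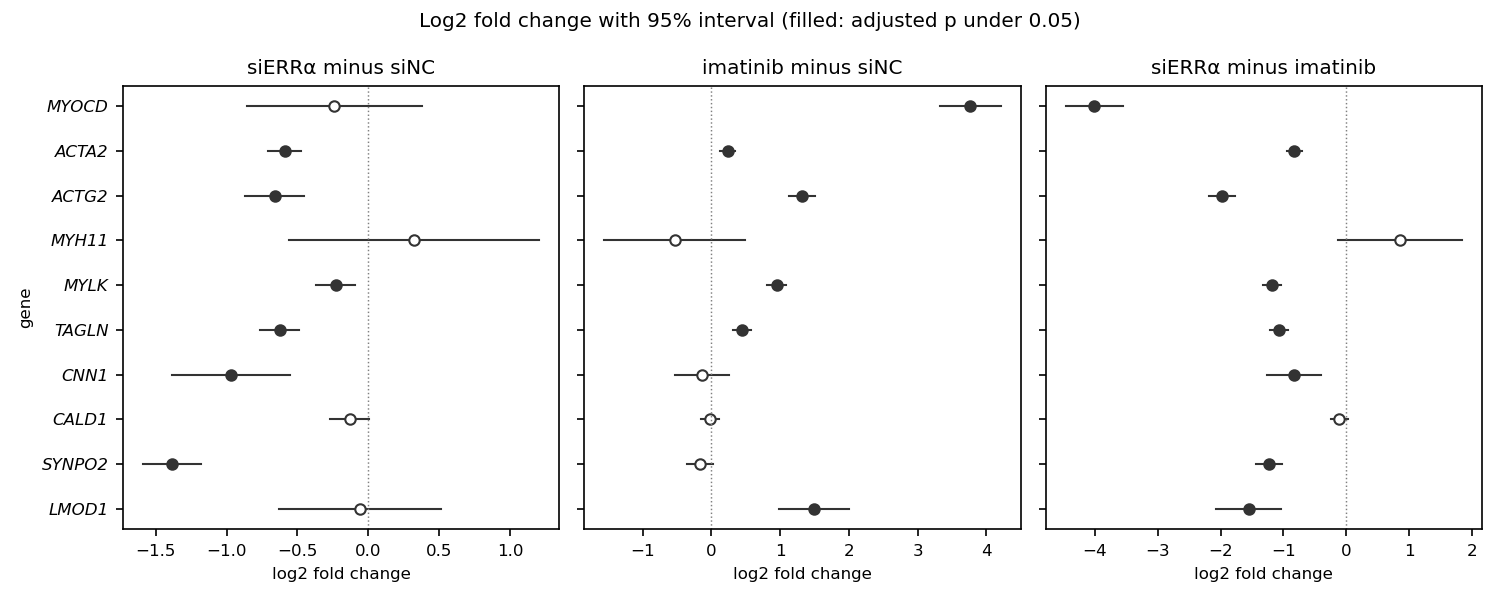
Log2 fold change of the 10 genes in the 3 contrasts. Points are edgeR estimates and lines their 95% intervals on a linear log2 axis whose range differs between panels, and filled points have an adjusted p under 0.05. For knockdown 6 points are filled and all lie left of 0, for imatinib 6 are filled and all lie right of 0, and MYH11 and CALD1 are open in every panel.

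Different genes thus passed the threshold in the contrasts with siNC. ACTA2, ACTG2, MYLK and TAGLN were lower in siERRα and higher with imatinib. CNN1 and SYNPO2 were past the threshold with knockdown alone, and MYOCD and LMOD1 with imatinib alone. For these 4, siERRα against imatinib gave log2 fold changes of -0.83 (SE 0.20) for CNN1, -1.22 (SE 0.10) for SYNPO2, -4.01 (SE 0.22) for MYOCD and -1.55 (SE 0.25) for LMOD1. The same contrast gave -0.83 (SE 0.06) for ACTA2, -1.98 (SE 0.10) for ACTG2, -1.18 (SE 0.07) for MYLK and -1.07 (SE 0.07) for TAGLN. These 8 are the genes past the threshold in that contrast, and in each the siERRα and imatinib libraries did not overlap. The share of all genes without such overlap was not counted.

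The 10 genes together took 0.146% to 0.155% of all counts in siNC libraries, 0.118% to 0.128% in siERRα and 0.159% to 0.165% with imatinib. ACTA2 and CALD1 made up most of that, 81.6% to 89.8% of the 10-gene total across libraries. Levels were then compared between genes as CPM per kilobase of merged exons. In siNC the order was CALD1 (93.2 ± 5.36), ACTA2 (70.4 ± 2.97), TAGLN (16.6 ± 0.543), ACTG2 (2.99 ± 0.19), MYLK (1.53 ± 0.06), CNN1 (0.698 ± 0.099), SYNPO2 (0.634 ± 0.044), LMOD1 (0.195 ± 0.015), MYOCD (0.063 ± 0.0099) and MYH11 (0.0127 ± 0.0029) CPM per kb (mean ± SD, n = 3). Only CNN1 and SYNPO2 overlapped between neighbours. With imatinib MYOCD moved to the sixth place at 0.869 ± 0.179 CPM per kb, above CNN1, and SYNPO2 and LMOD1 overlapped. Lengths taken from the longest transcript gave the same order in siNC, whereas MYOCD was seventh with imatinib and its libraries overlapped those of CNN1 and SYNPO2. In siERRα MYLK and ACTG2 traded places with that length.

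The smooth muscle isoforms were also set against the whole of their gene family. Levels of 6 actin genes were compared per kilobase of exon, and among them the cytoplasmic ACTB and ACTG1 made up 64.1% and 34.4% of the actin level in siNC. ACTA2 held 1.46% ± 0.025 of the actin level in siNC, 0.959% ± 0.025 in siERRα and 1.78% ± 0.063 with imatinib (SD, n = 3). ACTG2 held 0.0622% ± 0.0062, 0.0387% ± 0.0035 and 0.159% ± 0.0069 in the same order, and neither share overlapped between groups. ACTA1 and ACTC1, the skeletal and cardiac actins, each stayed at or below 0.00128% in every library. Actin genes are nearly identical in coding sequence, and how reads matching several genes were treated is not given in the sources used here, so these shares are uncertain. Among 4 myosin heavy chains, MYH11 held 0.0391% ± 0.0098 in siNC, 0.0461% ± 0.0158 in siERRα and 0.0239% ± 0.0055 with imatinib, with the siERRα range overlapping both others. The non-muscle MYH9 and MYH10 made up 78.1% and 21.6% of the myosin heavy chain level in siNC.

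**Figure D3:**
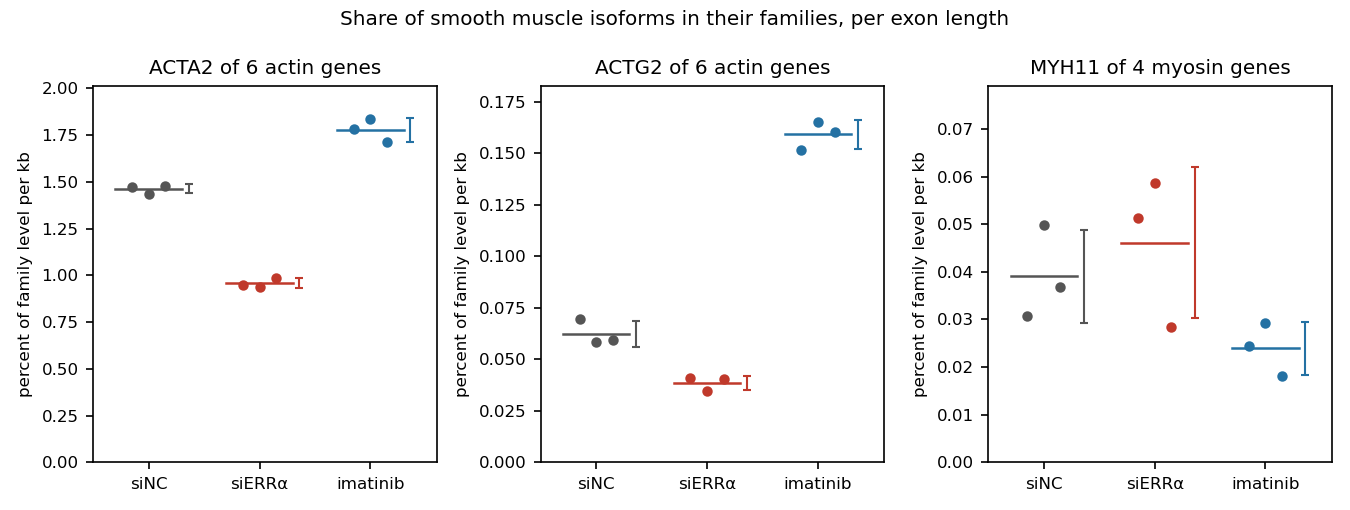
Share of ACTA2 and ACTG2 in the summed level of 6 actin genes, and of MYH11 in that of 4 myosin heavy chain genes. Each axis starts at 0 and gives percent of the family's CPM per kilobase of exon, with 3 libraries per group (points), the mean (line) and SD (bar). ACTA2 lies near 1.46% in siNC, 0.959% in siERRα and 1.78% with imatinib, and MYH11 stays below 0.06% in every library.

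The partners of myocardin were examined as a list of 19 genes, of which 18 were tested. After knockdown 2 were lower, 2 higher and 14 not past the threshold (median log2 fold change 0.08), and with imatinib 7 were lower, 4 higher and 7 not past it (median -0.02). In siERRα against imatinib 6 were lower, 8 higher and 4 not past it (median 0.17). Among all genes tested, 12.6% were lower and 11.4% higher after knockdown, and 20.3% and 21.4% with imatinib. For siERRα against imatinib these shares were 26.6% and 25.6%. SRF itself was at 74.1 ± 6.71 CPM in siNC, 84.1 ± 6.16 CPM in siERRα and 71.3 ± 4.44 CPM with imatinib, and differed from siNC in neither group at the threshold (log2 fold change 0.18, edgeR adjusted p = 0.082, and -0.06, edgeR adjusted p = 0.583). Without siNC replicate 2 or siERRα replicate 2 SRF passed the threshold for knockdown, at 0.25 and 0.24. MRTFA was at 27.8, 28.5 and 31.2 CPM, with a log2 fold change of 0.03 for knockdown and 0.17 for imatinib, the second past the threshold only without imatinib replicate 2 (0.24). Its close relative MRTFB rose by 0.27 with imatinib (edgeR adjusted p = 0.0139), a call lost without imatinib replicate 1 (0.17) or siNC replicate 2 (0.21).

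TEAD1, a factor that binds muscle promoters at the MCAT element and is a partner of YAP, fell after knockdown from 156 ± 6.03 to 92.7 ± 5.46 CPM, a log2 fold change of -0.75 (SE 0.06, edgeR adjusted p = 1.91e-08). It rose to 178 ± 3.94 CPM with imatinib, by 0.19 (edgeR adjusted p = 0.0122). The 6-base core of its site, GGAATG on either strand, was in 6 of the 13 promoter windows and in 14.0% of all windows. Those 6 windows came from 5 of the 7 genes, and the share over all genes was not counted. Any part of TEAD1 in the levels of the 10 genes was not tested. An example is in the ACTA2 window inside the gene span (chr10:88952931-88952976, minus strand), with the core in capitals starting 183 bases before that window's annotated start:
ACTA2 at 183: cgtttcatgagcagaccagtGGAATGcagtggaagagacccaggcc

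Among the factors that compete with myocardin for SRF, ELK3 and ELK4 fell with imatinib by 0.46 (edgeR adjusted p = 1.19e-05) and 0.33 (edgeR adjusted p = 0.000452) on the log2 scale. Neither passed the threshold after knockdown (0.03 and 0.16), and ELK1 passed it in neither contrast (0.13 and 0.10). For knockdown ELK4 passed without siERRα replicate 1 (0.21) and ELK1 without siERRα replicate 2 (0.18). KLF4, a repressor of smooth muscle genes, was low at 3.37 ± 0.154 CPM in siNC and 2.54 ± 0.0581 CPM with imatinib (-0.41, edgeR adjusted p = 0.037), a call lost when any of siNC replicates 1 and 3 or any imatinib library was left out (-0.43 to -0.37). MEF2D, a muscle transcription factor, was higher after knockdown (0.28, edgeR adjusted p = 0.00632) and lower with imatinib (-0.27, edgeR adjusted p = 0.00523), and the first of these calls was lost without siERRα replicate 1 (0.20). FOXF1, needed for gut smooth muscle, was abundant at 325 ± 11.1 CPM in siNC and rose after knockdown by 0.27 (edgeR adjusted p = 0.00135). With imatinib it stood at -0.15 (edgeR adjusted p = 0.0361), a call lost without siNC replicate 2 (-0.13) or 3 (-0.15) or imatinib replicate 2 (-0.12) or 3 (-0.17).

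CSRP2, a LIM protein that bridges SRF and GATA factors, rose with imatinib from 22.2 ± 1.35 to 36.6 ± 1.72 CPM (0.72, edgeR adjusted p = 2.3e-07). PRRX1, a mesenchymal homeobox factor, was close to the detection limit at 0.311, 0.127 and 1.29 CPM in siNC, siERRα and imatinib. It rose with imatinib by 2.06 (SE 0.30, edgeR adjusted p = 1.72e-05). After knockdown it was at -1.25 (edgeR adjusted p = 0.0333), a call lost with DESeq2 (-1.28), with limma (-1.14), without any 1 of the siERRα libraries (-1.28 to -1.25), and without siNC replicate 2 (-0.98) or 3 (-1.29). FHL2 and CSRP1 were lower with imatinib (-0.18 and -0.48, edgeR adjusted p = 0.00701 and 0.018), though CSRP1 was not past the threshold without imatinib replicate 1 (-0.31) or siNC replicate 1 (-0.45). KLF5, GATA6, MEF2A and YY1 passed the threshold in neither contrast with siNC, except that YY1 did so for imatinib without siERRα replicate 2 (0.12).

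The other list of smooth muscle genes held 40 names, of which 33 were tested. After knockdown 15 were lower, 5 higher and 13 not past the threshold, with a median log2 fold change of -0.19. With imatinib 6 were lower, 13 higher and 14 not past it, with a median of 0.10. In siERRα against imatinib 17 were lower, 7 higher and 9 not past it (median -0.24). These lists were drawn up with earlier results known, and the background shares given above apply to them.

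Genes of this list that fell after knockdown included KCNMA1, the pore of the large-conductance calcium-activated potassium channel, which went from 11.7 ± 0.331 to 6.07 ± 0.211 CPM (-0.95, edgeR adjusted p = 2.98e-07) and also fell with imatinib (8.88 ± 0.554 CPM, -0.40, edgeR adjusted p = 0.00109). MYL6, the essential light chain shared by smooth muscle and non-muscle myosin, fell after knockdown from 686 ± 12.7 to 484 ± 11.0 CPM (-0.50, edgeR adjusted p = 8.71e-07) and did not pass the threshold with imatinib (0.10), except without imatinib replicate 1 (0.14). SYNM, an intermediate filament protein, was among the 5 that rose after knockdown, from 44.7 ± 1.13 to 65.7 ± 2.96 CPM (0.55, edgeR adjusted p = 1.09e-05). The other 4, named after their values were seen, were SMTN (0.22, smoothelin), PDLIM3 (0.27), SVIL (0.36, supervillin) and RBPMS (0.19). With imatinib SMTN (-0.47, edgeR adjusted p = 5.07e-05) and SVIL (-0.57, edgeR adjusted p = 4.46e-05) were lower. RBPMS was higher with imatinib (0.30, edgeR adjusted p = 0.0013), and PDLIM3 (-0.06) and SYNM (0.15) did not pass the threshold.

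The small heat shock protein HSPB7 fell after knockdown and rose with imatinib, from 45.6 ± 1.57 CPM in siNC to 34.3 ± 2.29 and 149 ± 3.64 CPM (-0.41 and 1.71, edgeR adjusted p = 8.54e-05 and 3.84e-13). AOC3, an amine oxidase of smooth muscle and fat, had the same directions at 14.1 ± 0.266, 10.4 ± 0.643 and 31.2 ± 1.11 CPM (-0.43 and 1.15, edgeR adjusted p = 0.000368 and 6.4e-10). HSPB6, a target of cyclic nucleotide signalling in relaxation, and NPNT, a matrix ligand of integrin α8, rose with imatinib by 1.16 and 1.29 (edgeR adjusted p = 1.43e-09 and 3.52e-09). After knockdown HSPB6 and NPNT both stood at -0.19 and did not pass the threshold, but HSPB6 did so without siERRα replicate 1 (-0.29) and NPNT without siERRα replicate 2 (-0.28) or siNC replicate 2 (-0.29).

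Control of myosin phosphorylation and contraction was represented by 31 genes, 29 of them tested. After knockdown 5 were lower, 2 higher and 22 not past the threshold (median log2 fold change 0.00), and with imatinib 8 were lower, 6 higher and 15 not past it (median 0.04). In siERRα against imatinib 10 were lower, 10 higher and 9 not past it (median -0.02). The shares lower and higher over all genes were 12.6% and 11.4% after knockdown and 20.3% and 21.4% with imatinib. They were 26.6% and 25.6% in siERRα against imatinib. PRKG1, the cGMP-dependent kinase of the relaxation pathway, fell after knockdown from 14.3 ± 0.922 to 6.89 ± 1.12 CPM (-1.06, edgeR adjusted p = 1.03e-06) and rose to 34.1 ± 3.87 CPM with imatinib (1.25, edgeR adjusted p = 1.3e-08). PDE5A, the phosphodiesterase that removes cGMP, moved the other way in both, from 22.0 ± 1.18 to 30.3 ± 2.66 and 16.4 ± 0.956 CPM (0.46 and -0.42, edgeR adjusted p = 0.000239 and 0.000374).

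The endothelin receptor gene EDNRA rose after knockdown from 124 ± 1.81 to 204 ± 9.76 CPM (0.71, edgeR adjusted p = 1.6e-08) and fell to 66.0 ± 0.854 CPM with imatinib (-0.91, edgeR adjusted p = 2.76e-10). CHRM3, the muscarinic receptor of gut smooth muscle, rose with imatinib by 0.58 (edgeR adjusted p = 3.38e-07). After knockdown it was at -0.20 (edgeR adjusted p = 0.0233), a call lost without siNC replicate 1 (-0.17) or siERRα replicate 1 (-0.19) or 3 (-0.18). RHOB, a small GTPase, fell after knockdown by 0.48 (edgeR adjusted p = 1.08e-05), and PPP1R14B, a phosphatase inhibitor, fell with imatinib by 0.58 (edgeR adjusted p = 1.43e-06). CAMK2D and MYL12A completed the 5 that fell after knockdown, by 0.31 and 0.25, and were named after their values were seen.

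The last list held 22 paralogs of the 10 genes, of which 13 were tested. After knockdown 1 was lower, 1 higher and 11 not past the threshold (median log2 fold change -0.01), and with imatinib 3 were lower, 2 higher and 8 not past it (median 0.00). In siERRα against imatinib 4 were lower, 3 higher and 6 not past it. Over all genes tested, the shares lower and higher were 12.6% and 11.4% for knockdown and 20.3% and 21.4% for imatinib. For siERRα against imatinib they were 26.6% and 25.6%. SYNPO, the paralog of SYNPO2, rose with imatinib from 47.9 ± 2.12 to 126 ± 11.5 CPM (1.40, edgeR adjusted p = 8.32e-11) and did not pass the threshold after knockdown (-0.14). TAGLN2, the widely expressed paralog of TAGLN, fell with imatinib by 0.47 (edgeR adjusted p = 8.86e-06). CNN3, a non-muscle calponin named here after its value was seen, was the third that fell with imatinib, by 0.14 (edgeR adjusted p = 0.03). The filament-capping tropomodulins differed in direction, with TMOD2 at -0.60 and 0.49 and TMOD3 at 0.25 and -0.35 for knockdown and imatinib, all 4 past the threshold. ACTB and ACTG1 passed it in neither contrast, with log2 fold changes of 0.05 and -0.01 for knockdown and -0.09 and 0.02 for imatinib. MYH9, MYH10 and MYH14 were likewise not past it, although MYH9 (0.24) and MYH10 (0.28) passed for imatinib without imatinib replicate 2, and MYH10 also without imatinib replicate 3 (0.27).

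**Figure D4:**
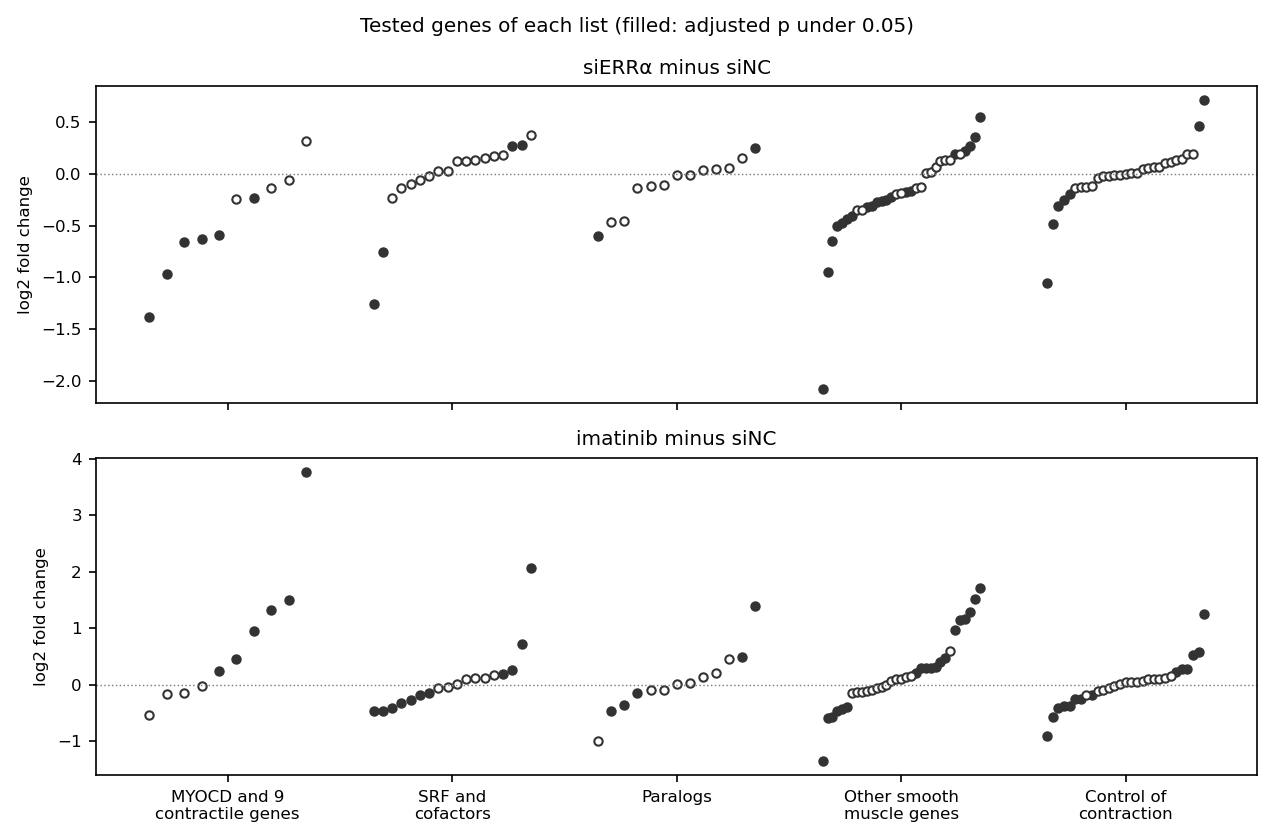
Log2 fold change of the 10 genes and of the tested genes in the 4 related lists, for knockdown (top) and imatinib (bottom). Each point is 1 gene, sorted within its list, on a linear log2 axis with a dotted line at 0, and filled points have an adjusted p under 0.05. The list of other smooth muscle genes has 15 filled points below 0 and 5 above for knockdown, and 6 below and 13 above for imatinib.

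Markers of other cell types were read in the same libraries. The 6 pericyte markers, all above 1 CPM, summed to 745 to 784 CPM in siNC, 730 to 820 CPM in siERRα and 1545 to 1770 CPM with imatinib, most of it RGS5 at a mean of 566, 608 and 1334 CPM. RGS5 did not pass the threshold after knockdown (log2 fold change 0.10), whereas the other 5 fell: CSPG4 by 0.86, KCNJ8 by 0.65, NOTCH3 by 0.45, ABCC9 by 0.36 and PDGFRB by 0.25 (edgeR adjusted p from 7.89e-07 to 0.00582). With imatinib all 6 rose, by 0.27 (PDGFRB) to 1.24 (RGS5). The 6 fibroblast markers, 4 of them above 1 CPM, summed to 1479 to 1548, 1419 to 1645 and 1991 to 2296 CPM. Among the fibroblast markers PDGFRA and COL1A1 rose after knockdown (0.43 and 0.39, edgeR adjusted p = 7.24e-05 and 0.0116), and the other 4 did not pass the threshold. The 5 pericyte markers thus moved with ACTA2, ACTG2, MYLK, TAGLN, CNN1 and SYNPO2 after knockdown, and both sums were higher in the imatinib libraries, as were MYOCD, ACTA2, ACTG2, MYLK, TAGLN and LMOD1. The 5 markers of the Cajal cell and GIST also passed the threshold with imatinib, where 21.4% of all genes tested were higher and 20.3% lower. KIT (0.23), ANO1 (0.61), ETV1 (0.55) and PRKCQ (0.73) were higher, and CD34 (-0.37) was lower. After knockdown ETV1 (0.29, edgeR adjusted p = 0.00226) and PRKCQ (0.32, edgeR adjusted p = 0.00963) were higher. KIT (0.07), ANO1 (0.08) and CD34 (0.06) did not pass the threshold after knockdown. Of 8 skeletal muscle markers MYOD1, MYOG, MYF5 and MYF6 were at 0 in all libraries. The skeletal sum was 1.05 to 1.61 CPM in siNC, 1.18 to 1.26 CPM in siERRα and 4.18 to 5.23 CPM with imatinib, and most of it was MYH3, embryonic myosin. Of 6 cardiac markers NKX2-5 and MYH6 were at 0 throughout, and the sum reached at most 0.539 CPM. The 5 endothelial and 5 leukocyte markers summed to at most 3.39 and 1.08 CPM. The 5 epithelial markers summed to 302 to 315, 280 to 303 and 193 to 223 CPM in siNC, siERRα and imatinib, nearly all of it KRT18, with KRT5 at 0.

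The genes whose log2 CPM most resembled that of MYOCD over the 9 libraries, among 11603 protein-coding genes, included STON1, CPQ, PAM and NCALD, each with a Pearson r of 0.997 to 0.998. STON1 averaged 0.924 CPM in siNC, 0.828 CPM in siERRα and 4.99 CPM with imatinib. For ACTA2 they were MBD3, ETNK2, TMEM51, DACT3 and CHST2, with r between 0.993 and 0.996. MBD3 averaged 82.3, 27.0 and 114 CPM in the 3 groups. Within the 10 genes, MYOCD was closest to MYLK (0.983), ACTG2 (0.929) and LMOD1 (0.923) and less like ACTA2 (0.728), SYNPO2 (0.442) and CNN1 (0.357). ACTA2 was closest to TAGLN (0.962), ACTG2 (0.904), SYNPO2 (0.903) and CNN1 (0.881). The 9 points share 3 groups, so a high r mostly says that the group means of 2 genes are spaced alike on the log2 scale. A like order of group means is not enough, since MYOCD and ACTA2 share theirs at an r of 0.728.

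The 7-base sequence ATGTTCT, noticed in these data because genes with it in the 3′ UTR were lower as a group after knockdown, was looked for in the same 10 genes. MYLK and CALD1 hold 2 copies each and SYNPO2 holds 1, whereas the other 7 genes hold 0. Of 12767 tested genes with a 3′ UTR, 19.0% have at least 1 copy. The median log2 fold change after knockdown was -0.10 over the 2421 genes with a copy and 0.03 over the 10346 without. With imatinib these medians were -0.02 and 0.01. The knockdown medians restate how the sequence was noticed and are no test of it, and 3′ UTR length was not taken into account. The part of the sequence in the values of MYLK, CALD1 and SYNPO2 was not tested. ACTA2, ACTG2, TAGLN and CNN1 were lower after knockdown and have no copy, in 3′ UTRs of 152, 293, 3108 and 531 bases. The 3′ UTRs of MYLK, CALD1 and SYNPO2 hold 4059, 2387 and 3316 bases. That of MYOCD, also without a copy, holds 5308.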

How the data were processed

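RNA of 9 T1 libraries was sequenced as paired reads. The authors deposited raw counts per gene, made with STAR 2.7.3a on GRCh38 and featureCounts 2.0.1, as listed in the submitters' processing notes. Which annotation was counted, whether by strand, and what became of multi-mapped reads is not given in the sources used here. Columns were matched to samples by the library number in the labels.

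Counts were filtered with filterByExpr (minimum count 10, minimum total 15), scaled by TMM and fitted in 1 model over all 9 libraries with edgeR 4.0.16 (robust quasi-likelihood F-test, R 4.3.3). P-values were adjusted by Benjamini-Hochberg over 16976 genes, with a threshold of 0.05, and intervals are at 95%. The script was tested on simulated data. DESeq2 1.42.0 and limma 3.58.1 served as alternatives, beside other filters, size factors, a replicate block, the compared libraries alone and each library left out. The test named in the study's methods is DESeq2. 

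Members and lists were chosen with earlier results of these data known. Text names every member, ESRRA, overlapping genes averaging at least 1 CPM over the 9 libraries, all tested SRF partners, the actins and myosins, the 5 genes most like MYOCD and ACTA2 (1 of which is not reported here), and in each list the up to 4 genes with the smallest p per comparison, of which several are summarised by counts. Gene positions, lengths and 3′ UTRs are from GENCODE 44, promoters from RefSeq (GRCh38.p14). Within groups, library pairs differed by more than sampling noise (chi-square per degree of freedom 3.77 to 16.4).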

Additional observations from a re-analysis of the deposited data

How the results depend on the processing

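Under the 16 alternatives the number of the 10 genes past the threshold ranged from 5 to 7 (lower, knockdown), stayed at 6 (higher, imatinib) and ranged from 8 to 9 (lower, knockdown against imatinib), and 0 passed in the other direction. Of their values under alternatives, 470 kept their side of the threshold, 3 (MYLK) lost the call and 2 (CALD1) gained it. None changed sign among those past the threshold. Some of the others did, such as LMOD1 for knockdown, which ranged from -0.27 to 0.05. The fold change of MYOCD with imatinib ranged from 3.64 to 3.92 on the log2 scale. For the other genes named (related lists, 6 pericyte markers and ACTA2-AS1), 2170 values kept their call, 57 lost and 25 gained it. The number of promoter windows with a CArG box went from 2 to 7 when 1 mismatch was allowed, by construction. With the longest transcript as gene length the ACTA2 share of actins was 1.72%, 1.13% and 2.09% in siNC, siERRα and imatinib.

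Correlations of deviations were -0.0996 to 0.147 between same-numbered libraries and -0.133 to 0.0926 between differently numbered ones. The numbers were therefore not taken as pairs. The highest values were those of siERRα with imatinib for replicate 2 (0.147) and replicate 1 (0.095). With the replicate block the number of the 10 genes past the threshold was 6, 6 and 8 in the 3 contrasts, as without it. Depth limits MYOCD in siNC and siERRα, MYH11 and LMOD1, which rest on few reads.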
